A study of Homo sapiens with 6 samples.

Results

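The SLC25 family of mitochondrial carriers was described in OVCA433 cells, an established human ovarian cancer cell line, from all rows of the deposited count table whose identifier starts with SLC25A followed by a digit. The rule found 38 of the 11957 rows, all named by gene symbol, and used no measured value. Poly(A)-enriched, strand-specific RNA sequencing was run on 3 libraries labelled U2AF2 SI and 3 libraries labelled U2AF2 SINC, all from OVCA433, and the series asks how a deficiency of the splicing factor gene U2AF2 changes gene expression. The labels expand neither abbreviation, and name no agent, dose or time for either group. Whether the 3 libraries of a label are separate cultures is not said, so each p-value reflects the spread of these libraries alone, and that spread may be technical. The groups are called SI-labelled and SINC-labelled libraries from here on.

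Carriers of this family sit, with few exceptions, in the inner mitochondrial membrane and pass metabolites between the cytosol and the matrix, usually by exchange of 1 solute for another. ADP/ATP carriers bring ADP in for ATP synthase and take ATP out, the phosphate carrier brings in the phosphate that ATP synthase needs, and the citrate carrier takes out the citrate from which cytosolic acetyl-CoA for lipid synthesis is made. Amino acid carriers serve the malate-aspartate shuttle, the urea cycle, heme synthesis and the breakdown of amino acids. All are encoded in the nucleus.

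The 3 genes for ADP/ATP carriers, SLC25A4, SLC25A5 and SLC25A6, encode closely related proteins from separate promoters, and they are shown first because together they make up the exchange for which the family is best known. The 250 bases before the start site of each, from RefSeq on GRCh38.p14, are given 5′ to 3′, with the CCAAT motif, the TATAAA motif and the GGGCGG motif in capitals (either strand, none overlapping another). The windows are chr4:185143016-185143265 on the plus strand for SLC25A4, chrX:119468194-119468443 on the plus strand for SLC25A5 and chrX:1392114-1392363 on the minus strand for SLC25A6.
SLC25A4: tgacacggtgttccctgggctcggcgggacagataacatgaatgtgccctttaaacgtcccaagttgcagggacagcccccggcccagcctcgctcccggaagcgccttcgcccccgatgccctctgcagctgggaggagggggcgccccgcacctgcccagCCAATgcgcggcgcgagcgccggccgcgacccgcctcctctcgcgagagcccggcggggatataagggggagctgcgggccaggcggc
SLC25A5: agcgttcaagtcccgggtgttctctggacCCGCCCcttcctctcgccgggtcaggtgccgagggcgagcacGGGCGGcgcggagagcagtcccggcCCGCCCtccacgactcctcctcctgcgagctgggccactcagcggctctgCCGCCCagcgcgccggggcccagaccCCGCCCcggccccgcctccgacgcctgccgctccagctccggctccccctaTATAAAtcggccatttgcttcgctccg
SLC25A6: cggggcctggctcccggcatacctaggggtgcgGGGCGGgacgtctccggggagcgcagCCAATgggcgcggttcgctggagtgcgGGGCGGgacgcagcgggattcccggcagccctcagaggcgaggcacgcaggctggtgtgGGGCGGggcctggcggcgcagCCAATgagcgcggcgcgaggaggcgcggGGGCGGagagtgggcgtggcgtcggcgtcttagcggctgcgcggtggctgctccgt

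The SLC25A5 window held 1 TATAAA, 5 GGGCGG and 0 CCAAT. SLC25A6 had 0 TATAAA, 4 GGGCGG and 2 CCAAT, and SLC25A4 had 1 CCAAT and 0 of the other motifs. RefSeq windows were matched for 32 of the 38 members. CCAAT was found in 16 of them, against 33.0% of all 27305 windows and 35.6% of the 9259 windows of measured rows. TATAAA was in 2 of the 32, against 11.1% and 4.75%. GGGCGG was in 24 of the 32, against 42.3% and 69.6%. A match describes letters in the window and shows no binding.

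The libraries held 43333966 to 48976810 counts each, and every member had between 55 and 40837 counts in every library. All 38 members passed the filter on low counts, as did all 11957 rows, the lowest of which had a mean of 31 counts. U2AF2 itself read 285, 345 and 373 CPM in SI-labelled libraries and 252, 284 and 205 CPM in SINC-labelled libraries, in counts scaled to a common library size with TMM factors, the unit of all levels here. It stood at 335 ± 44.7 CPM (SD, n = 3) in SI-labelled libraries and 247 ± 39.6 CPM (SD, n = 3) in SINC-labelled libraries, so the level was lower in the SINC-labelled libraries. The count columns are headed N for SI-labelled and S for SINC-labelled libraries and were tied to them by the sample descriptions. Whether labels or columns were exchanged is not known, and if they were, the sign of every difference given here would be the opposite. Its edgeR log2 fold change was 0.44 ± 0.19 (SE) with an adjusted p of 0.653, and p was 0.1 in an exact permutation test, 2-sided, the smallest p possible with 3 libraries against 3. U2AF1, its partner in recognising the 3′ splice site, read 48.2, 72.1 and 58.5 CPM in SI-labelled libraries and 81.5, 81.2 and 56.6 CPM in SINC-labelled libraries (log2 fold change -0.29 ± 0.21 SE, edgeR adjusted p = 0.739). Of 11 markers of ovarian carcinoma epithelium, KRT8, KRT18 and MUC1 had rows, with summed levels of 242 to 410.2 CPM in SI-labelled libraries and 312 to 455 CPM in SINC-labelled libraries. The other 8, among them EPCAM, PAX8 and MUC16, had no row and were not analysed here. The label was thus checked only in part, and these markers do not establish it. Of 7 fibroblast markers, COL1A1, COL1A2 and COL3A1 had rows, summing to 57.1 to 76.7 CPM in SI-labelled libraries and 39.2 to 62.3 CPM in SINC-labelled libraries. Of 6 leukocyte markers CD68 alone had a row, at 49.3 to 53.5 CPM and 48.2 to 56.3 CPM in the same order of groups, and of 5 endothelial markers 0 had one. The part of other cells in the results was not tested. Fewer cells of a type and less RNA per cell cannot be told apart in bulk RNA.

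Carrier genes were read at very different levels within OVCA433 cells. Levels of different genes were compared as CPM per kb of the longest protein-coding transcript in GENCODE release 29, averaged over the 6 libraries. SLC25A5 was highest at 466 CPM per kb (range over libraries 379 to 514). SLC25A39, a carrier for mitochondrial glutathione import, came next at 193 (137 to 235), followed by the phosphate carrier gene SLC25A3 at 133 (115 to 146), SLC25A6 at 118 (78.0 to 191) and the citrate carrier gene SLC25A1 at 79.4 (52.8 to 98.7). SLC25A53, to which no substrate is given here, was lowest at 0.373 (0.178 to 0.510 CPM per kb), with SLC25A30, a relative of the uncoupling proteins, at 0.889 and SLC25A16 at 1.29. The median member had 14.0 CPM per kb, and on this length the highest mean was 1251 times the lowest. These values cover only genes with a row, and no row of the table had a mean under 31 counts. A carrier gene below that level would be missing from the order. Per kb of coding sequence the span was narrower, from 2.52 CPM per kb for SLC25A53 to 745 for SLC25A3.

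Neighbours in that order were mostly not apart: in 35 of 37 neighbouring pairs the ranges over the 6 libraries overlapped. Per kb of longest transcript SLC25A5 lay clear above SLC25A39, and SLC25A37, mitoferrin-1, clear above SLC25A29. Per kb of median transcript length SLC25A5 (379 to 514) overlapped SLC25A39 (262 to 451), and SLC25A29 at 10.7 was above SLC25A37 at 8.25. Per kb of coding sequence SLC25A5 was again clear of SLC25A39, but SLC25A37 (19.6 to 26.8) overlapped SLC25A29 (14.9 to 22.2). The order also depended on the length used, since the transcript that was sequenced is not known. SLC25A3 has 11 protein-coding transcripts in GENCODE 29, the longest of 6087 bases against a median of 1351. Per kb of coding sequence SLC25A3 was first at 745 CPM per kb, ahead of SLC25A5 at 665, SLC25A39 at 288 and SLC25A6 at 272 CPM per kb, with SLC25A4 in the fifth place. Per kb of median transcript length SLC25A3 was also first, at 599 CPM per kb against 466 for SLC25A5. SLC25A3, SLC25A5 and SLC25A39 held the first 3 places with each of the 3 lengths, in an order that was not fixed. This rests on the SLC25A6 row alone: with a second row that the gene name table pairs with that symbol, ENSG00000292334, SLC25A6 came to 257 CPM per kb of longest transcript, in the second place, and 592 CPM per kb of coding sequence, in the third place. SLC25A53 was last with all 3.

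**Figure D1:**
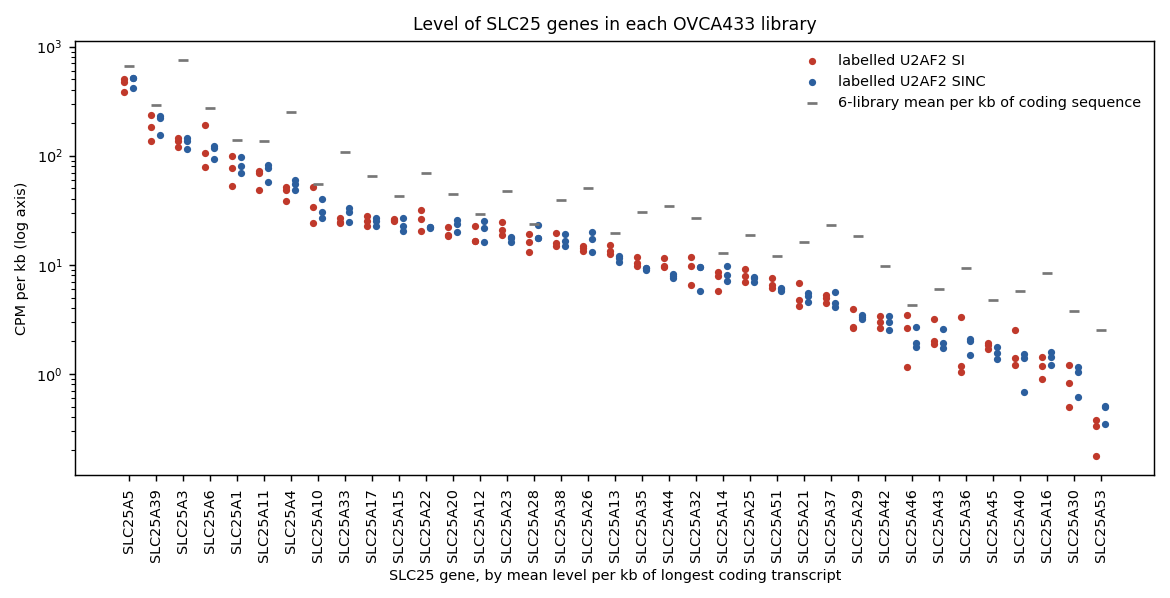
Level of SLC25 genes in CPM per kb of its longest protein-coding transcript (log axis), 1 point per library, SI-labelled libraries left of SINC-labelled libraries, with grey dashes for the 6-library mean per kb of coding sequence. SLC25A5 lies highest at 466 CPM per kb and SLC25A53 lowest at 0.373, and SLC25A3 moves to the first place, at 745, when coding length is used.

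Between the groups, no difference of a carrier gene passed the test. Of the 38 members, 0 passed edgeR's quasi-likelihood test over all rows, where 0.00836% of all rows passed, and 0 had an unadjusted p under 0.05, against 7.37% of all rows. Limma-voom and DESeq2 likewise called 0 members and gave 0 an unadjusted p under 0.05, although DESeq2 gave an adjusted p to 12 members alone. DESeq2 with its filtering set for 0.05 called 5.74% of the rows to which it gave an adjusted p, but gave one to 5 members only, so its 0 calls among the members say little. With 1 library left out, the count at an unadjusted p under 0.05 became 2 without SI-labelled replicate 1 (SLC25A36 and SLC25A22). It became 1 without SI-labelled replicate 2 (SLC25A44) and 1 without SINC-labelled replicate 3, and 0 passed after adjustment. Log2 fold changes ran from -0.60 to 0.51, with 20 members above and 18 below 0 (54.3% of all rows lay above 0). Their median was 0.01, against 0.04 over all rows, and their median absolute value was 0.18, against 0.22. Adjusted p-values ran from 0.672 to 0.997. The precision bounds what could be seen: the 95% interval of a member reached 0.37 to 0.90 log2 units to either side of its value, and for 34 of the 38 it lay within 1 log2 unit of 0, that is within a doubling or halving.

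**Figure D2:**
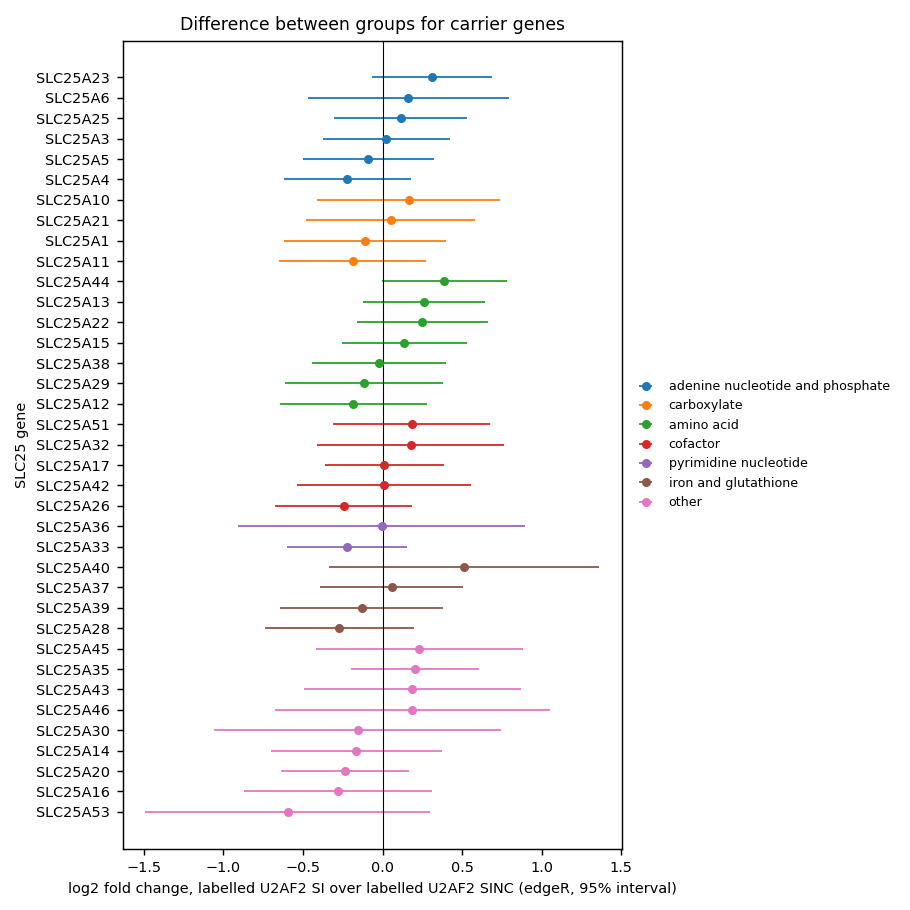
Log2 fold change of SLC25 genes, SI-labelled libraries over SINC-labelled libraries (x axis), with 95% intervals from edgeR, coloured by the class of solute carried. Every interval drawn includes 0; SLC25A40 at 0.51 and SLC25A53 at -0.60 are the farthest out and have wide intervals, and with 1 library left out they ran from 0.11 to 0.73 and from -0.81 to -0.32.

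Together the 38 genes took 0.357% ± 0.0375 (SD, n = 3) of the counts in SI-labelled libraries and 0.321% ± 0.00279 (SD, n = 3) in SINC-labelled libraries. On the TMM scale they summed to 2877, 3748 and 3449 CPM in SI-labelled libraries, replicates 1 to 3, and to 3684, 3620 and 3010 CPM in SINC-labelled libraries. These sums overlapped between the groups. The shares of counts, which take no TMM factors, did not overlap and were not tested. They were 0.335%, 0.401% and 0.336% in SI-labelled libraries and 0.322%, 0.323% and 0.318% in SINC-labelled libraries. With library size alone the log2 ratio of the summed levels was 0.15, against a median log2 fold change of 0.22 over all rows. SLC25A3 and SLC25A5 alone held 41.6% ± 3.07 (SD, n = 3) of the sum in SI-labelled libraries and 41.1% ± 0.299 (SD, n = 3) in SINC-labelled libraries.

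Among ADP/ATP carriers, SLC25A5, the form of dividing cells, read 483, 607 and 638 CPM in SI-labelled libraries and 651, 655 and 531 CPM in SINC-labelled libraries. The groups overlapped, and the log2 fold change was -0.09 ± 0.19 (SE, edgeR adjusted p = 0.913). SLC25A4, the form that prevails in heart and skeletal muscle, had 171, 231 and 217 CPM in SI-labelled libraries, against 242, 263 and 216 CPM in SINC-labelled libraries. SI-labelled replicate 1 was lowest for both genes, and SLC25A4 had a log2 fold change of -0.22 ± 0.18 (SE, edgeR adjusted p = 0.768).

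SLC25A6 varied most of the 3, with 161, 393 and 216 CPM in SI-labelled libraries and 253, 245 and 190.4 CPM in SINC-labelled libraries. Both the highest and the lowest value were in SI-labelled libraries. The log2 fold change was 0.16 ± 0.29 (SE, edgeR adjusted p = 0.895), and it turned to -0.27 without SI-labelled replicate 2. A further row, ENSG00000292334, is paired with the symbol SLC25A6 by the gene name table and does not match the rule. It read 189, 422 and 260 CPM in SI-labelled libraries and 316, 302 and 230.5 CPM in SINC-labelled libraries, 1.07 to 1.25 times the SLC25A6 value of the same library. Whether both rows count the same reads is not known, so the level of SLC25A6 is uncertain and may be understated. With both rows summed the log2 fold change was 0.09. Reads of the 3 genes can also match each other or their processed pseudogenes.

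Per kb of longest transcript, SLC25A5 made up 73.1% ± 5.90 (SD, n = 3) of the ADP/ATP carrier level in SI-labelled libraries and 74.4% ± 0.274 (SD, n = 3) in SINC-labelled libraries. SLC25A6 made up 19.4% ± 6.14 and 17.2% ± 0.643, and SLC25A4 7.50% ± 0.283 and 8.41% ± 0.417 (SD, n = 3 each). The 3 coding sequences have the same length of 894 bases, and per coding length the shares were 56.0% ± 5.82 and 56.6% ± 0.234 for SLC25A5, 23.9% ± 6.92 and 21.1% ± 0.890 for SLC25A6, and 20.0% ± 1.17 and 22.3% ± 0.997 for SLC25A4 (SI-labelled libraries first, SD, n = 3 each). On these rows SLC25A5 led with both lengths in all 6 libraries. With ENSG00000292334 added to SLC25A6, SLC25A5 held 44.3% ± 6.51 in SI-labelled and 44.9% ± 0.515 in SINC-labelled libraries per coding length, SLC25A6 40.0% ± 8.10 and 37.4% ± 1.45 (SD, n = 3 each), and in SI-labelled replicate 2 SLC25A6 was the higher of the pair, at 815 CPM against 607 CPM. On the SLC25A6 row alone, SLC25A6 was below SLC25A4 on the coding scale in SI-labelled replicates 1 and 3 and SINC-labelled replicates 2 and 3. There, SI-labelled replicate 1 had 19.7% for SLC25A6 and 21.0% for SLC25A4. With both rows, SLC25A6 read 350 CPM in that library, against 171 CPM for SLC25A4.

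The phosphate carrier gene SLC25A3 read 733, 825 and 887 CPM in SI-labelled libraries and 877, 829 and 701 CPM in SINC-labelled libraries. It had the most counts of all members and was among the steadiest, its highest library being 1.27 times its lowest. The groups overlapped, with a log2 fold change of 0.02 ± 0.18 (SE, 95% interval -0.38 to 0.42, edgeR adjusted p = 0.981). The ATP-Mg/phosphate carriers are activated by calcium and adjust the adenine nucleotide content of the matrix. Of these, SLC25A23 had 64.6, 85.3 and 70.6 CPM in SI-labelled libraries, against 55.7, 60.0 and 61.8 CPM in SINC-labelled libraries. The groups did not overlap, and the log2 fold change of 0.31 ± 0.17 (SE) did not pass (edgeR adjusted p = 0.696). SLC25A25 read 25.6 to 34.2 CPM and 25.9 to 28.8 CPM, and per kb of longest transcript SLC25A23 was 2.68 ± 0.0738 times SLC25A25 in SI-labelled libraries and 2.33 ± 0.0741 times in SINC-labelled libraries (SD, n = 3 each), a ratio that was not tested. It depended on the length used: per kb of median transcript length it was 9.90 ± 0.273 and 8.63 ± 0.274, SI-labelled libraries first.

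**Figure D3:**
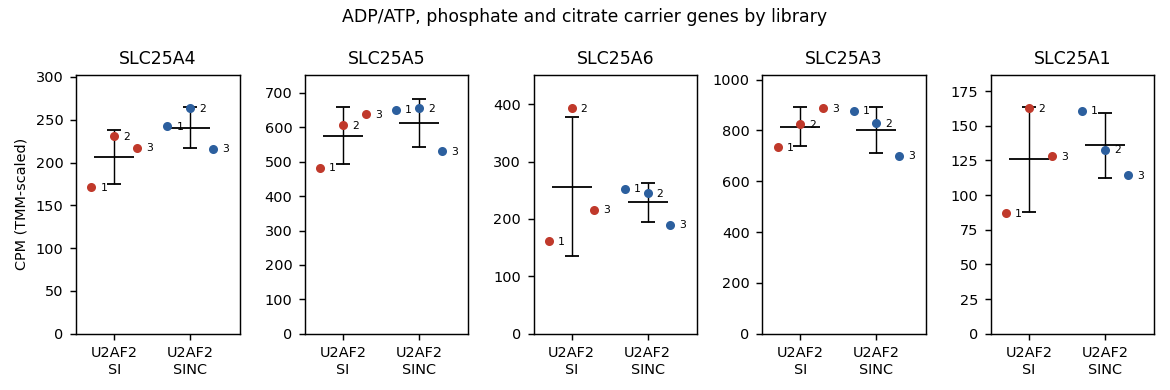
CPM in each library (points, numbered by replicate) with mean and SD (bars) for the ADP/ATP carrier genes SLC25A4, SLC25A5 and SLC25A6, the phosphate carrier gene SLC25A3 and the citrate carrier gene SLC25A1, SI-labelled libraries left of SINC-labelled libraries. The groups overlap for all 5 genes, and SLC25A6 reaches 393 CPM in SI-labelled replicate 2 against 161 to 253 CPM in the other libraries.

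Carboxylate carriers feed and drain the citric acid cycle. SLC25A1, the citrate carrier, read 87.0, 163 and 128 CPM in SI-labelled libraries and 161, 133 and 114 CPM in SINC-labelled libraries. Its 1.87-fold spread lay within the SI-labelled libraries, and the log2 fold change was -0.11 ± 0.23 (SE, edgeR adjusted p = 0.912). SLC25A11, which exchanges 2-oxoglutarate for malate in the malate-aspartate shuttle, had 91.5 to 139 CPM in SI-labelled libraries and 108 to 157 CPM in SINC-labelled libraries. SLC25A10, the dicarboxylate carrier, had 47.1 to 99.6 CPM and 51.8 to 77.8 CPM, and SLC25A21, which carries oxodicarboxylates of lysine breakdown, 11.6 to 18.8 CPM and 12.7 to 15.2 CPM, in the same order of groups. All 4 overlapped between the groups.

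Of the 7 amino acid carriers measured, 4 had a log2 fold change above and 3 below 0, with a median of 0.14. SLC25A12 and SLC25A13, the calcium-regulated aspartate/glutamate carriers of the malate-aspartate shuttle, lay on opposite sides of 0 with TMM factors, while with library size alone SLC25A12 was at 0.0089. SLC25A12 read 67.0, 49.0 and 49.3 CPM in SI-labelled libraries and 48.3, 74.9 and 64.7 CPM in SINC-labelled libraries, a log2 fold change of -0.18 ± 0.21 (SE, edgeR adjusted p = 0.835). SLC25A13, known as citrin, read 47.9, 42.6 and 40.2 CPM in SI-labelled libraries, against 33.7, 36.7 and 38.6 CPM in SINC-labelled libraries, a log2 fold change of 0.26 ± 0.17 (SE, edgeR adjusted p = 0.721). The groups overlapped for SLC25A12 and did not for SLC25A13. Per kb of longest transcript SLC25A12 was 1.35 ± 0.136 times SLC25A13 in SI-labelled libraries and 1.84 ± 0.328 times in SINC-labelled libraries (SD, n = 3 each).

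SLC25A44, which brings branched-chain amino acids into mitochondria, had the smallest unadjusted p of all members. It read 36.0, 34.7 and 42.3 CPM in SI-labelled libraries and 27.5, 30.1 and 28.6 CPM in SINC-labelled libraries, and the groups did not overlap, SI-labelled libraries being higher. Its log2 fold change was 0.39 ± 0.18 (SE), with an unadjusted p of 0.0522 and an edgeR adjusted p of 0.672. SLC25A22, a glutamate carrier, had 57.3, 88.3 and 73.6 CPM in SI-labelled libraries and 62.3, 61.5 and 60.6 CPM in SINC-labelled libraries. The wider spread was in SI-labelled libraries, which reached both below and above the others (log2 fold change 0.25 ± 0.19 SE, edgeR adjusted p = 0.746).

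SLC25A15, the ornithine carrier of the urea cycle, read 39.9, 41.4 and 40.4 CPM in SI-labelled libraries and 36.0, 42.5 and 32.3 CPM in SINC-labelled libraries, with a log2 fold change of 0.14 ± 0.18 (SE, edgeR adjusted p = 0.856). SLC25A38, which supplies glycine for heme synthesis, read 32.0, 33.8 and 41.7 CPM in SI-labelled libraries and 41.3, 35.8 and 32.0 CPM in SINC-labelled libraries, with a log2 fold change of -0.02 ± 0.19 (SE, edgeR adjusted p = 0.982). SLC25A29, a carrier of basic amino acids, read 13.8, 20.2 and 13.6 CPM in SI-labelled libraries and 17.2, 16.6 and 17.8 CPM in SINC-labelled libraries, with a log2 fold change of -0.12 ± 0.23 (SE, edgeR adjusted p = 0.902). The groups overlapped for all 3. SLC25A2, SLC25A18 and SLC25A31, further ornithine, glutamate and ADP/ATP carriers, were not analysed here.

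Of 6 cofactor carriers, 4 lay above and 2 below 0. SLC25A26, the S-adenosylmethionine carrier, had 35.8 to 39.9 CPM in SI-labelled libraries and 35.2 to 53.4 CPM in SINC-labelled libraries. SLC25A51, the NAD carrier, had 10.3 to 12.8 CPM and 9.76 to 10.2 CPM, and SLC25A32, a folate and FAD carrier, 18.8 to 34.1 CPM and 16.7 to 27.6 CPM, in the same order of groups. SLC25A17, a carrier of peroxisomes and thus an exception to the family's usual site, had 54.2 to 67.3 CPM and 54.6 to 65.1 CPM, and the coenzyme A carrier gene SLC25A42 had 8.15 to 10.6 CPM and 7.82 to 10.7 CPM, again in that order.

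Related carriers for 1 solute often stood far apart in level. The glutathione carrier gene SLC25A39 read 219.5, 378 and 292 CPM in SI-labelled libraries and 374, 353 and 248 CPM in SINC-labelled libraries. Its paralog SLC25A40 read 10.1, 4.83 and 5.68 CPM in SI-labelled libraries and 5.60, 2.74 and 6.12 CPM in SINC-labelled libraries. Per kb of longest transcript SLC25A39 was 54.7 to 324 times SLC25A40 over the 6 libraries, and per coding length 20.4 to 121 times. Neither passed the test (log2 fold changes -0.13 ± 0.23 and 0.51 ± 0.39 SE, edgeR adjusted p = 0.895 and 0.748). SLC25A33, a pyrimidine nucleotide carrier, was 7.17 to 25.4 times its relative SLC25A36 per kb of longest transcript. Per kb of median transcript length it was 2.01 to 7.13 times SLC25A36. SLC25A33 had 92.2 to 102 CPM and 94.1 to 127 CPM, SI-labelled libraries first. SLC25A36 had 15.5, 4.85 and 5.52 CPM in SI-labelled libraries, against 9.32, 6.97 and 9.68 CPM in SINC-labelled libraries, with its highest and lowest values both under the first label. The mitoferrins SLC25A28 and SLC25A37, which import iron for heme and iron-sulfur clusters, took either order with the length used: the ratio of SLC25A28 to SLC25A37 was 2.48 to 5.57 per kb of longest transcript and 0.692 to 1.56 per coding length.

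The remaining members were the carnitine/acylcarnitine carrier gene SLC25A20, uncoupling protein relatives, an outer membrane protein and genes without a substrate given here. SLC25A20, which brings acylcarnitines in for fatty acid oxidation, had 34.5, 34.9 and 41.3 CPM in SI-labelled libraries and 48.2, 44.6 and 37.6 CPM in SINC-labelled libraries, which overlapped (log2 fold change -0.24 ± 0.18 SE, edgeR adjusted p = 0.753). SLC25A53 read 2.06, 1.11 and 2.37 CPM in SI-labelled libraries and 3.18, 3.06 and 2.14 CPM in SINC-labelled libraries. Its log2 fold change of -0.60 ± 0.41 (SE) was the lowest of the members, from 55 to 136 counts per library, and its edgeR adjusted p was 0.727. SLC25A16 had 9.26, 7.63 and 5.87 CPM and 10.4, 9.34 and 7.89 CPM, and SLC25A30 4.41, 3.03 and 1.81 CPM and 2.26, 3.78 and 4.28 CPM, SI-labelled libraries first (log2 fold changes -0.28 ± 0.27 and -0.16 ± 0.41 SE, edgeR adjusted p = 0.804 and 0.930). SLC25A14 and SLC25A35 lay between 9.86 and 32.7 CPM in every library. SLC25A43, SLC25A45 and SLC25A46, the last an outer membrane protein that acts in mitochondrial shape, lay between 2.75 and 8.77 CPM.

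The groups did not overlap for 5 of the 38 members, or 13.2%, against 1559 of the 11957 rows. In all 5 the SI-labelled libraries were higher, as for 7.36% of all rows, and 0 members lay the other way, as 5.68% of all rows did. They were SLC25A44, SLC25A23 and SLC25A13, described above, with SLC25A35 and SLC25A51, which were named after their values were seen. The count in both directions together was at the level of the whole table.

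Members also differed between libraries of 1 label. These differences varied with the GC content of their transcripts, most strongly in SI-labelled replicates 1 and 2. Members differed by 1.24 to 3.69 times between their highest and lowest library, with a median of 1.54 times, against 1.81 times over all rows read in all 6 libraries. The 19 members of higher GC content (50.1% to 65.6% of the longest coding transcript) and the 19 of lower GC content (34.2% to 49.9%) did not move alike. In SI-labelled replicate 1 the 19 members of higher GC content deviated by a median of -0.21 log2 units (6-library mean set to 0), and the 19 of lower GC content 0.16. In SI-labelled replicate 2 these medians were 0.13 and -0.02, and in replicate 3 of that label 0.05 and -0.13. SINC-labelled libraries had 0.07 and 0.05, 0.01 and 0.15, and -0.11 and -0.04, in replicates 1 to 3.

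SI-labelled replicate 2 was the highest library for 8 of the 19 members of higher GC content, SLC25A1, SLC25A6, SLC25A10, SLC25A22, SLC25A23, SLC25A25, SLC25A29 and SLC25A39, and for 0 of the other 19. Replicate 1 of that label was the highest for 9 of the 19 members of lower GC content and 2 of higher GC content. Over all rows, replicate 2 was the highest library for 19.3% and replicate 1 for 28.1%. Among the 38 members these were 8 and 11, so the counts without regard to GC content were near those of the whole table. Across the 38 members, Spearman's rho between GC content and the deviation was -0.69 in SI-labelled replicate 1 and 0.63 in replicate 2. Across the 11327 rows with a transcript it was -0.72 and 0.52, so the members were like the whole table in both libraries. In SI-labelled replicate 3 rho was 0.39 over the members, and in SINC-labelled libraries it was 0.04, -0.03 and -0.46. Over the 11327 rows it was 0.28 in SI-labelled replicate 3 and 0.21, 0.26 and -0.42 in SINC-labelled libraries. With the length of the longest transcript in place of GC content, rho over the members was 0.42, -0.27 and -0.15 in SI-labelled and -0.10, -0.15 and 0.44 in SINC-labelled libraries, replicates 1 to 3. Genes of 1 library share its preparation and are not independent replicates. After loess trends on length and GC content were taken out of every library, the medians of the 19 members of higher GC content were 0.05 in SI-labelled replicate 1 and -0.04 in replicate 2, and those of the other 19 were -0.02 and 0.06. In SI-labelled replicate 3 the medians were then 0.01 and -0.02, higher GC content first. In SINC-labelled libraries they were -0.03 and 0.08, -0.06 and 0.15, and -0.04 and -0.14, in replicates 1 to 3, so the gap was smaller in the 3 SI-labelled libraries and larger in all 3 SINC-labelled ones. The part of GC content in the values of SLC25A1, SLC25A6, SLC25A22 and the other members was not tested beyond this.

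**Figure D4:**
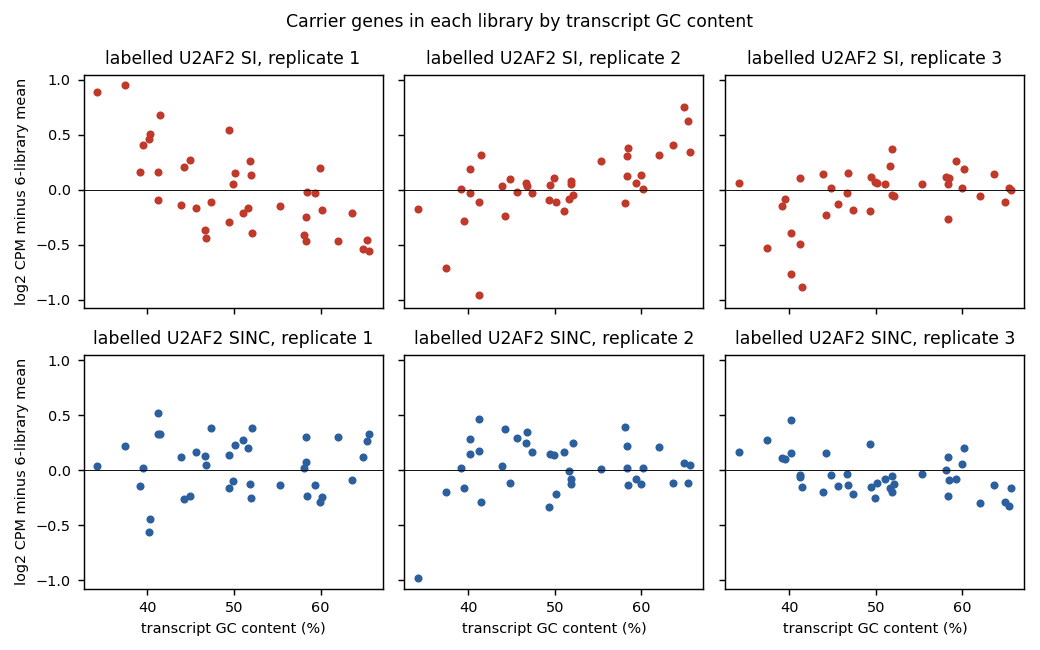
Deviation of each SLC25 gene from its mean over the 6 libraries (log2 CPM, y axis) against the GC content of its longest protein-coding transcript (x axis), 1 panel per library, SI-labelled libraries in the upper row. Points slope down in SI-labelled replicate 1 and up in replicate 2, with Spearman's rho of -0.69 and 0.63 over 38 genes.

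Genes that work beside the carriers were read from lists by their counts. Of 5 family members under other symbols, UCP2, MTCH1 and MTCH2 had rows. They had log2 fold changes of 0.17 ± 0.17, -0.16 ± 0.20 and -0.17 ± 0.19 (SE), and 0 passed at either threshold. UCP2, an uncoupling protein relative, was at 112 ± 14.9 CPM in SI-labelled libraries and 99.9 ± 5.50 CPM in SINC-labelled libraries, and MTCH2, an outer membrane insertase, at 239 ± 23.2 CPM and 268 ± 48.0 CPM (SD, n = 3 each). Of 10 measured genes for other mitochondrial transport, the pyruvate carriers, porins and sideroflexins, 0 passed and 0 had an unadjusted p under 0.05, 6 lay above and 4 below 0, and the median was 0.09. MPC1, a subunit of the pyruvate carrier, was at 18.9 ± 1.36 CPM and 13.2 ± 3.30 CPM (log2 fold change 0.52 ± 0.24 SE, edgeR adjusted p = 0.672), and VDAC3, a porin of the outer membrane, at 242 ± 14.4 CPM and 302 ± 42.6 CPM (-0.32 ± 0.18 SE, edgeR adjusted p = 0.696), SI-labelled libraries first (SD, n = 3 each). With the length trend removed VDAC3 was at -0.072, and MPC1 at 0.78.

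All 9 genes of carrier import, which brings these proteins to the inner membrane, had rows, and 0 passed in edgeR. The summed level was 513 to 576 CPM in SI-labelled libraries and 611 to 824 CPM in SINC-labelled libraries, the median log2 fold change was -0.24, and 3 had an unadjusted p under 0.05, all lower in SI-labelled libraries, against 4.22% of all rows. The 3 were TIMM8B, TIMM10 and TIMM13, the last named after its value was seen. TIMM8B and TIMM10, small chaperones of the intermembrane space that hold carrier precursors or other membrane proteins, had log2 fold changes of -0.86 ± 0.23 and -0.57 ± 0.21 (SE), with edgeR adjusted p of 0.653 for both. With the trend on transcript length removed in each library these were -0.38 and -0.039, and with GC content also removed -0.44 and -0.072. Of 19 measured enzymes that make or use the solutes carried, 14 lay above and 5 below 0, where 54.3% of all rows lay above 0. Their median was 0.22, and 0 passed. The 2 with an unadjusted p under 0.05, against 3.15% of all rows in that direction, were higher in SI-labelled libraries. ACLY, which splits the citrate that SLC25A1 exports, was at 330 ± 24.8 CPM and 242 ± 14.2 CPM (log2 fold change 0.45 ± 0.17 SE), and GOT2, the matrix transaminase of the malate-aspartate shuttle, at 269.8 ± 22.7 CPM and 210.2 ± 2.01 CPM (0.36 ± 0.16 SE), SI-labelled libraries first (SD, n = 3 each; edgeR adjusted p = 0.653 and 0.672). Among 7 measured regulators of mitochondrial biogenesis 0 passed, 4 lay above 0 and the median was 0.25, with PPARGC1B, a coactivator of mitochondrial genes, at 0.41 ± 0.24 (SE) and MYC at 0.25 ± 0.16 (SE; edgeR adjusted p = 0.699 and 0.716). With the length trend removed ACLY was at 0.30, GOT2 at 0.36, PPARGC1B at 0.27 and MYC at 0.27. With GC content also removed these were 0.27, 0.31, 0.22 and 0.26, in the same order.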

How the data were processed

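Total RNA of 6 OVCA433 libraries was enriched for poly(A) RNA, fragmented and made into strand-specific libraries, per the labels' protocols. The submitters' processing notes list CASAVA and StringTie, with neither role nor version; aligner, build and annotation: not given in the sources used here. The values deposited by the authors are whole-number counts per gene or assembled locus, used as raw counts; columns were tied to libraries by the sample descriptions, and 0 columns were left out. Libraries of a group differed by a chi-square of 56.0 to 170.1 per degree of freedom, so none was a repeat.

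Differences, as libraries labelled U2AF2 SI minus U2AF2 SINC, went through edgeR 4.0.16 under R 4.3.3 (TMM factors, filterByExpr, glmQLFit and glmQLFTest, group as the only term) over all 11957 rows, with Benjamini-Hochberg adjustment at 0.05. Standard errors came from the F statistic. Alternatives were RLE and upper-quartile factors, library size alone, other filters, a replicate block, omission of each library, DESeq2 1.42.0, limma-voom (limma 3.58.1), and loess trends (span 0.3) on transcript length and GC content. Lengths came from GENCODE 29 for all 38 members and 94.7% of rows. The fit was tested on simulated data. Named genes were carriers of the ADP/ATP, phosphate, citrate and amino acid classes, the 8 members of smallest p, the 3 highest and 3 lowest levels, and 2 genes per list; 1 of these members is not reported here. The lists were chosen with earlier results of these data known, while the 38 members follow from the symbol rule, which used no measured value. Counting intervals are not used, as PCR reads are not independent molecules.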

Additional observations from a re-analysis of the deposited data

How the results depend on the processing

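No SLC25 gene passed in edgeR, DESeq2 or limma-voom under any alternative tried. Of 20 members under the naming rule, 7 turned direction under an alternative other than library size alone. Members at an unadjusted p under 0.05 numbered 0, but 3 with library size alone (SLC25A44, SLC25A23 and SLC25A22), 1 with a mean of at least 5 CPM, 1 with length and GC trends removed, and 0 to 2 with 1 library left out. Over the whole table these settings gave 1149, 802, 909 and 384 to 1721 rows, in the same order. Library size alone moved the median of the members to 0.20, against 0.01 with TMM factors, and of all rows to 0.22, against 0.04, and the log2 ratio of summed member levels to 0.15, against -0.03 with TMM factors and -0.12 to 0.07 with 1 library left out. The member median ran from -0.02 to 0.06 with 1 library left out. Rows passing over the whole table numbered 1, and 0 with upper-quartile factors, library size alone, a mean of at least 5 CPM, DESeq2 and both trends removed; DESeq2 with independent filtering set for 0.05, added after the data were seen like the joint trend and the summed SLC25A6 rows, called 61 of 1062 rows, TIMM8B (adjusted p = 0.0422) and 0 members; 0 to 2 passed with 1 library left out. Rows at an unadjusted p under 0.05 numbered 881, but 548 with the replicate block, 533 with the length trend removed, and, among libraries labelled U2AF2 SINC, 410 when replicate 1 was left out, 384 for replicate 2 and 1721 for replicate 3. The log2 fold change of U2AF2 was 0.32 to 0.55 with 1 library left out.

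Directions turned for members near 0. With library size alone, which moves all rows up together and so turns small negative values by construction, the log2 fold changes were 0.10 for SLC25A5, 0.075 for SLC25A1, 0.0089 for SLC25A12, 0.066 for SLC25A29, 0.16 for SLC25A38, 0.064 for SLC25A39, 0.039 for SLC25A30 and 0.030 for MTCH2. With the length trend removed they were 0.17 for SLC25A5, -0.16 for SLC25A3, 0.030 for SLC25A1, 0.031 for SLC25A38 and 0.029 for SLC25A39, and with GC content also removed 0.12 for SLC25A5, -0.19 for SLC25A3, 0.032 for SLC25A1 and 0.062 for SLC25A39. With 1 library left out the ranges were -0.18 to 0.012 for SLC25A5, -0.27 to 0.39 for SLC25A6, -0.065 to 0.091 for SLC25A3, -0.33 to 0.082 for SLC25A1, -0.15 to 0.078 for SLC25A38, -0.33 to 0.031 for SLC25A39 and -0.53 to 0.11 for SLC25A30. Of members that kept their direction, SLC25A44 was at 0.24 and SLC25A13 at 0.13 with both trends removed, and SLC25A23 at 0.20 and SLC25A22 at 0.10 without replicate 2 labelled U2AF2 SI. The cause was not tested. Of the 10 highest members, 8 and 9 remained among the 10 highest with the median transcript and the coding length.

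The replicate number was not taken as a pairing: deviations of same-numbered libraries correlated at -0.09, 0.25 and -0.31, and replicate 1 labelled U2AF2 SI correlated best with replicate 3 labelled U2AF2 SINC (0.46). With the replicate block 2 rows passed over the whole table, 0 of them members, and 0 members had an unadjusted p under 0.05.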
